A study of Mus musculus with 15 samples.

Results

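The collagen chain genes were the 44 protein-coding mouse genes of the GENCODE M21 annotation whose symbols have the form Col, a type number, a and a chain number, out of 55266 genes to which reads could be assigned. They were chosen by name, with no measured value in the rule, though earlier results of these data were known. RNA was sequenced from the mouse embryonic fibroblast line NIH3T3, carrying 1 of 2 doxycycline-inducible constructs fused to histone H2A. H2A-TerminaTOR is an inhibitor of the kinase complex mTORC1 that is directed to the nucleus, and H2A-mCherry is its fluorescent control. All groups were starved and all but the last received PDGF, a growth factor for fibroblasts. The 5 groups of 3 libraries were H2A-TerminaTOR cells with cycloheximide and PDGF, H2A-mCherry cells with cycloheximide and PDGF, H2A-mCherry cells with rapamycin and PDGF, H2A-mCherry cells with PDGF alone and H2A-mCherry cells without PDGF. Cycloheximide blocks protein synthesis, and rapamycin inhibits mTORC1 throughout the cell. No group combined rapamycin with cycloheximide, and none held H2A-TerminaTOR cells without cycloheximide. The constructs sit in separately derived stable lines, so an effect of the construct and a difference between the lines cannot be told apart. The sources used here give no doses, times, length of starvation or doxycycline exposure.

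Collagens are proteins of 3 chains wound into a triple helix, and most are secreted. Fibrillar collagens (types I, II, III, V, XI, XXIV and XXVII) form or nucleate the banded fibrils of connective tissue. Collagen I, built from the products of Col1a1 and Col1a2, is the main product of fibroblasts, and collagen V sets the number and width of the fibrils. Collagen IV forms the network of basement membranes, collagen VI forms beaded filaments around cells, and the fibril-associated collagens attach to the surface of fibrils. Procollagen chains are hydroxylated, folded and exported by dedicated proteins of the secretory pathway. In fibrillar collagens the ends are then trimmed and the fibrils are cross-linked.

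The libraries held 3466202 to 6777780 counts. Collagen genes took 1.39% to 1.45% of the counts in the H2A-TerminaTOR libraries and 1.20% to 1.24% in the H2A-mCherry libraries with cycloheximide and PDGF. They took 1.07% to 1.13% with rapamycin and PDGF, 1.29% to 1.40% with PDGF alone and 1.72% to 1.81% without PDGF. These are shares of unscaled counts. CPM are TMM-normalized counts, scaled to a common library size. Summed in CPM, the genes had 15213.5 ± 403 in H2A-TerminaTOR and 13282 ± 248 in H2A-mCherry libraries with cycloheximide (SD, n = 3). With rapamycin the sum was 11982 ± 556, with PDGF alone 13197 ± 480 and without PDGF 14707.5 ± 164. On this scale H2A-TerminaTOR overlapped the PDGF-free libraries, and H2A-mCherry with cycloheximide overlapped PDGF alone. The share of counts on mitochondrially encoded genes moved with the groups as well, at 6.32% to 6.63% and 6.27% to 6.64% in the H2A-TerminaTOR and H2A-mCherry libraries with cycloheximide, 9.84% to 11.0% with rapamycin, 8.69% to 9.29% with PDGF alone and 11.1% to 12.2% without PDGF. Its part in the results was not tested. Of the 6 fibroblast markers listed, 5 had enough reads to be tested (Pdgfra, Thy1, Vim, Fn1 and S100a4) and Pdgfrb had 35 reads over all libraries. Their summed level was 611 to 746 CPM with PDGF alone and 269 to 322 CPM without it. The rapamycin libraries had 432 to 523 CPM. In the cycloheximide libraries it was 389 to 414 CPM in H2A-TerminaTOR cells and 390.3 to 476 CPM in H2A-mCherry cells, so that every other group lay below the libraries with PDGF alone. The part of this in the collagen changes was not tested. Among markers of other cell types, the macrophage gene Adgre1 and the epithelial genes Epcam and Krt18 had 0 reads, and the 4 adipocyte genes together stayed at or under 0.576 CPM in every library. The 4 endothelial genes summed to at most 4.73 CPM and the 4 epithelial genes to at most 3.88 CPM. The 6 macrophage genes summed to 16.0 to 18.8 CPM with PDGF alone, 6.72 to 11.3 CPM without it and 16.9 to 18.8 CPM with rapamycin. With cycloheximide they summed to 17.5 to 23.2 CPM in H2A-TerminaTOR cells and 17.8 to 26.1 CPM in H2A-mCherry cells. Most of their reads over all libraries came from Cd14. The chondrocyte list is described with rapamycin below.

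Of the 44 genes, 21 had enough reads to be tested: 8 of 11 fibrillar genes, 4 of 6 collagen IV genes, 3 of 6 collagen VI genes, 3 of 9 fibril-associated genes and 3 of 6 network and other genes. None of the 4 transmembrane collagens or the 2 multiplexins passed. The 23 genes that did not pass had at most 18 reads in a library (Col18a1), and Col9a1, Col13a1, Col15a1 and Col26a1 had 0 reads in all 15 libraries. No source read here states how reads on bases shared by several transcripts were counted, and the genes differ widely in the share of exon bases that belong to 1 transcript alone. Col4a1, the usual partner of Col4a2 in basement membranes, had 20 reads in all, with 972 of its 7464 exon bases specific to 1 transcript. Col4a5 had 17 reads with 379 of 6718 bases specific, whereas Col6a3 had 3192 reads with 1640 of 11963 bases specific. The part of shared bases in the low counts was not tested.

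Levels of different genes were compared only per kilobase of transcript-specific sequence, using the transcript of each gene with the most reads. This scale takes reads on shared bases as not counted, which no source read here states. Col1a2-201 has 2504 specific bases among 5348 exon bases, so its place in the order below rests on that reading. On that scale the starved cells without PDGF had most RNA of the collagen I chains, with 1098 ± 13.9 CPM per kilobase for Col1a2 and 818 ± 10.8 for Col1a1 (SD, n = 3). Col6a1, a collagen VI chain, followed closely at 778 ± 19.7. Col3a1, the single chain of collagen III, had 302 ± 19.2, and Col6a2 had 211 ± 8.16. The next 3, Col5a1 at 177 ± 3.71, Col5a2 at 162 ± 12.5 and Col4a2 at 152 ± 2.08, lay close together, and Col5a2 overlapped both of the others in its spread. Col6a3 had 58.1 ± 2.35 and Col5a3, the third collagen V chain, 54.4 ± 1.51, which did not differ beyond their spread. Col8a1, a chain of a short network-forming collagen, had 40.7 ± 2.07 and Col4a6 had 38.9 ± 1.93. The remaining tested genes were under 14 CPM per kilobase except Col16a1, whose leading transcript has 154 specific bases and is noncoding.

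**Figure D1:**
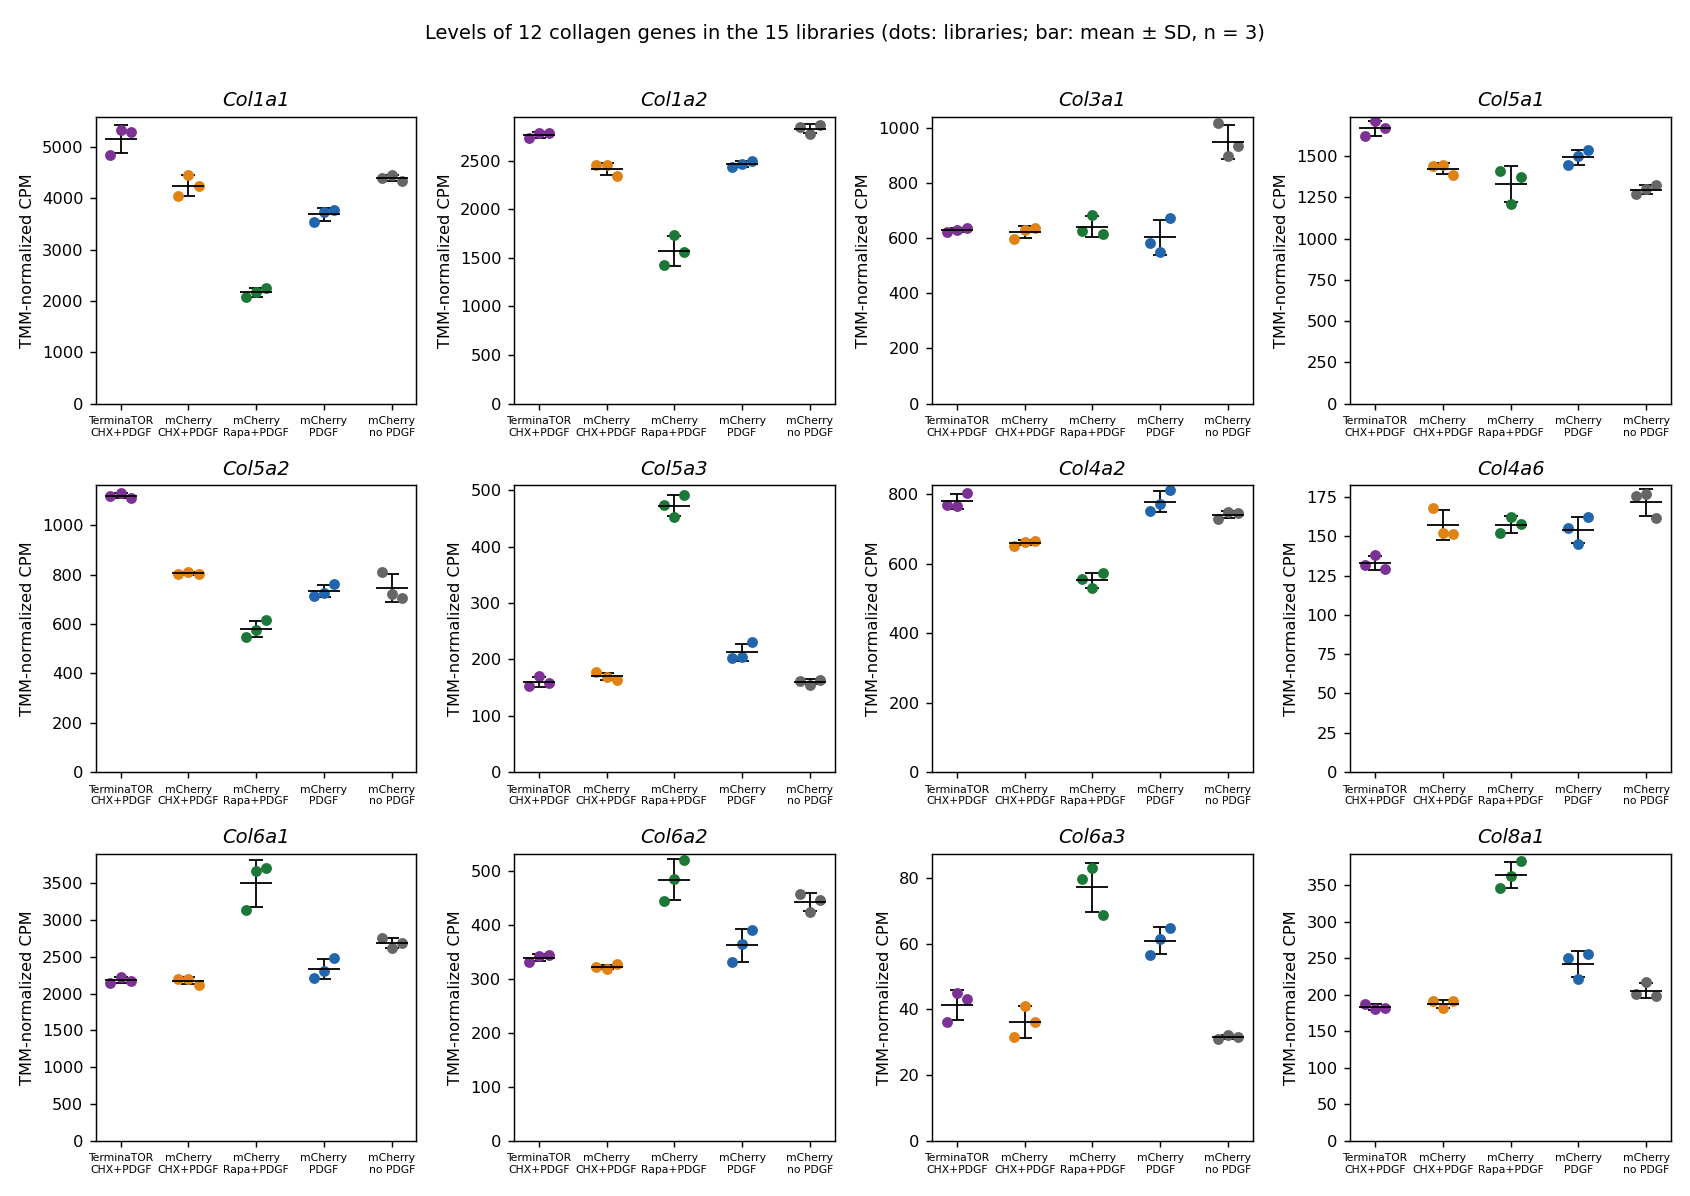
Levels of 12 collagen genes in TMM-normalized CPM (y axis, from 0) in the 3 libraries of each of the 5 groups (x axis), with the mean and SD. Col1a1 and Col1a2 were lowest in the rapamycin libraries, where Col5a3, Col6a1 and Col8a1 were highest, and Col5a2 was highest in the H2A-TerminaTOR libraries.

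PDGF against no PDGF was the first comparison, between starved H2A-mCherry cells with and without the growth factor. In it 5 collagen genes rose and 5 fell, so the genes did not move as a block. Col3a1 fell most, the collagen I chains fell slightly, and Col11a2 and Col6a3 rose. The 10 called genes among 21 tested stand beside 37.0% of all 10603 genes called in this comparison, 20.1% higher and 16.9% lower. The libraries with and without PDGF did not overlap for 14 of the 21, beside 46.2% of all genes. The median log2 change was 0.20 over the collagen genes and -0.01 over all genes tested. A gene was called at an adjusted p under 0.05 in the quasi-likelihood test of edgeR, adjusted by Benjamini-Hochberg over all genes tested, and every adjusted p below is from that test unless another is named. In such bulk samples fewer cells of a type and less RNA per cell cannot be told apart.

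Col3a1 had 583, 552 and 674 CPM with PDGF, against 1017, 899 and 934 CPM without. The groups did not overlap, and the gene fell by 0.65 on the log2 scale (SE 0.06, adjusted p = 6.59e-15). Its neighbour Col5a2, which lies 24.6 kb away on chromosome 1, had 714, 724 and 763 CPM with PDGF against 809.8, 719 and 707 CPM without, and was not called (log2 change -0.02 ± 0.06 SE, adjusted p = 0.798). Scaling by library size alone set the median log2 change of all genes at -0.26, and Col5a2 was then called lower (-0.27, adjusted p = 2.9e-05). Col1a1 had 3546, 3728 and 3776 CPM with PDGF and 4390, 4455 and 4341 CPM without. It fell by 0.25 on the log2 scale (SE 0.05, adjusted p = 3.46e-05), and Col1a2, at 2437, 2466 and 2496 CPM with PDGF against 2841, 2778 and 2869.7 CPM without, fell by 0.20 (SE 0.05, adjusted p = 0.00188). Both chains of collagen I were thus lower in all 3 libraries with PDGF.

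The chains of collagen VI parted. Col6a3, whose product joins the other 2 chains in the usual collagen VI, had 56.5, 61.5 and 64.8 CPM with PDGF and 31.1, 32.1 and 31.4 CPM without, and rose by 0.95 on the log2 scale (SE 0.13, adjusted p = 3.17e-09). Col6a2 had 330.5, 364 and 391 CPM with PDGF and 458, 424 and 445 CPM without, and fell by 0.29 (SE 0.06, adjusted p = 0.000169). Col6a1, 85.2 kb from Col6a2 on chromosome 10, had 2214, 2309 and 2483 CPM with PDGF and 2755, 2619 and 2685 CPM without. It fell by 0.20 (SE 0.05, adjusted p = 0.00186), but not past the threshold without PDGF replicate 1 (-0.15, adjusted p = 0.0515).

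Col5a3 had 202, 205 and 231 CPM with PDGF against 162, 155 and 164 CPM without, a rise of 0.41 on the log2 scale (SE 0.07, adjusted p = 2.38e-06). Under scaling by library size it was 0.16 and was not called (adjusted p = 0.0652). Col11a2, a fibrillar gene best known from cartilage, had 10.2, 10.1 and 7.46 CPM with PDGF against 1.45, 6.11 and 4.67 CPM without and rose by 1.19 (SE 0.31, adjusted p = 0.00122). The group without PDGF was spread widely for this gene. Smaller rises were found for Col8a1 (0.24 ± 0.07 SE, adjusted p = 0.00407) and Col5a1 (0.20 ± 0.05 SE, adjusted p = 0.0017). Col8a1 had 250.1, 222 and 256 CPM with PDGF against 201, 217 and 198 CPM without. Col5a1 had 1446, 1502 and 1537 CPM with PDGF against 1269, 1299.5 and 1324 CPM without. Scaling by library size turned the changes of Col8a1 and Col5a1 to -0.01 and -0.05. None of the 4 collagen IV genes was called by edgeR, and none had an unadjusted p under 0.05. DESeq2 and limma-voom called none of the 4 either. In the edgeR fit the log2 changes of the 4 genes were between -0.15 and 0.56. Under scaling by library size Col4a2 and Col4a6 were called lower, at -0.18 and -0.40.

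**Figure D2:**
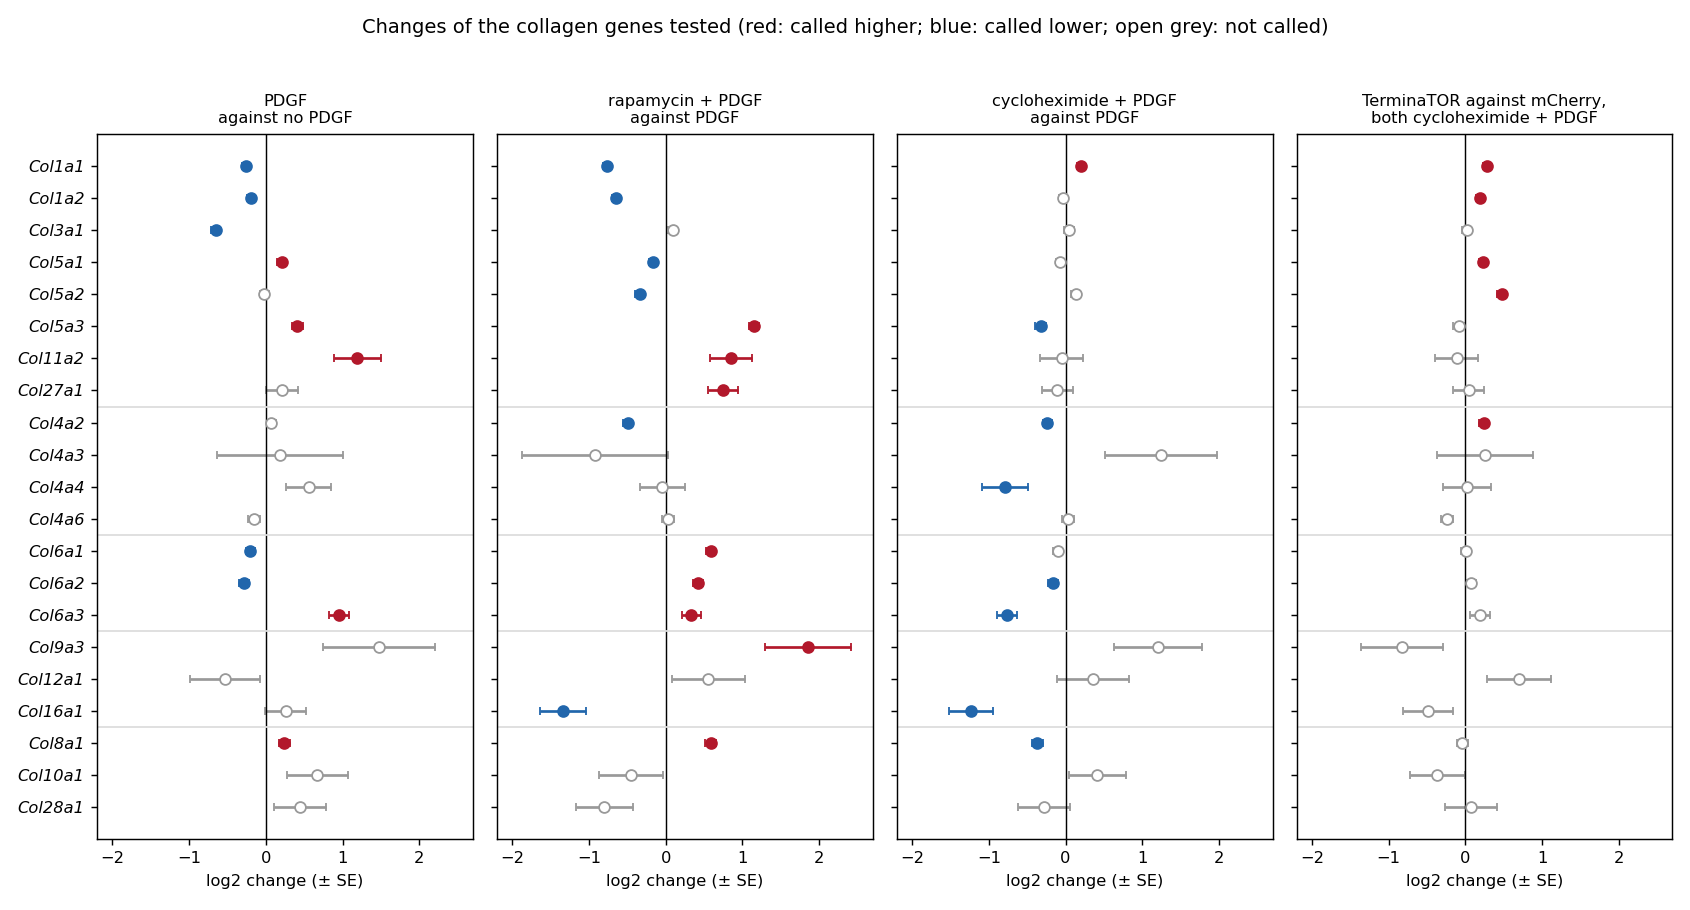
Log2 changes with SE (x axis) of the 21 tested collagen genes (y axis, grouped as fibrillar, collagen IV, collagen VI, fibril-associated and other genes) in the 4 comparisons, with genes called at an adjusted p under 0.05 filled. Under PDGF 5 genes were higher and 5 lower, where under scaling by library size the rises of Col5a1 and Col8a1 changed sign and that of Col5a3 was not called, and with TerminaTOR 5 were higher.

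Transcripts with retained introns fell with PDGF in most of the collagen genes where they could be tested. Some GENCODE transcripts of these genes are annotated as retained introns, and 8 of them had enough reads to be tested on their own. They came from 5 genes, 3 from Col1a2, 2 from Col5a2 and 1 each from Col3a1, Col5a3 and Col6a2, so they are not independent of each other. With PDGF 7 of the 8 fell, beside 8.91% of all 2852 retained-intron transcripts tested, and Col5a3-202 was not called (log2 change -0.10 ± 0.46 SE). Of the 20 protein-coding collagen transcripts tested, 5 rose and 5 fell, beside 33.0% of all 13116 transcripts called. The median log2 change was -1.44 over the 8 and 0.10 over the 20. The largest specific stretch of Col1a2-206 lies in intron 31 of the main transcript Col1a2-201, and that of Col1a2-207 in intron 41.

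Col1a2-207 had 15.3 ± 1.41 CPM with PDGF and 40.8 ± 4.74 CPM without (SD, n = 3), and fell by 1.41 on the log2 scale (SE 0.19, adjusted p = 1.75e-09). Col1a2-206 had 14.7 ± 4.06 CPM with PDGF and 33.2 ± 9.52 CPM without, and fell by 1.19 (SE 0.22, adjusted p = 6.4e-06). The main transcript Col1a2-201 fell by only 0.20 (SE 0.06, adjusted p = 0.00268). The reads on Col1a2-206 and Col1a2-207 together, for each read on Col1a2-201, were 0.0147, 0.0127 and 0.00982 with PDGF and 0.0247, 0.0239 and 0.0309 without. These ratios did not overlap between the groups (exact two-sided permutation test, p = 0.1, the smallest that 3 against 3 libraries allow). Col3a1-203 fell by 2.45 (SE 0.64, adjusted p = 0.00149), against a fall of 0.67 (SE 0.06) for the main transcript Col3a1-201. Col5a2-203 fell by 2.27 (SE 0.67, adjusted p = 0.00464) while Col5a2-201 was at -0.04 ± 0.06 SE and was not called. Some of the falls rest on few reads. Col3a1-203 had 1.04 ± 0.240 CPM with PDGF against 5.83 ± 2.90 without, and Col5a2-203 had 0.844 ± 0.599 against 4.33 ± 1.16. Col1a2-203 had 1.52 ± 0.643 CPM with PDGF against 5.43 ± 3.55 without, and Col5a2-204 had 1.85 ± 0.997 against 5.05 ± 3.01.

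Col6a2 reads came from 3 transcripts that share most of their exons and end differently. Col6a2-201 ends in an exon of 1050 bases and Col6a2-202 in another of 2059 bases that lies within the last intron of Col6a2-201, while Col6a2-203 is annotated as reading on into that intron. Both alternative ends carry coding sequence, 596 bases in Col6a2-201 and 293 bases in Col6a2-202, and the capitals below mark the first 120 bases after the splice junction that belong to each transcript alone, where a read can be told to come from it. The lower-case letters are the 30 bases before the junction that both share, at chr10:76603329-76603358, on the minus strand of GRCm38 and read from the GENCODE M21 transcript sequences. The capitals lie at chr10:76596692-76596811 for Col6a2-201 and at chr10:76599774-76599893 for Col6a2-202, and 34 of their 120 positions hold the same base.
Col6a2-201: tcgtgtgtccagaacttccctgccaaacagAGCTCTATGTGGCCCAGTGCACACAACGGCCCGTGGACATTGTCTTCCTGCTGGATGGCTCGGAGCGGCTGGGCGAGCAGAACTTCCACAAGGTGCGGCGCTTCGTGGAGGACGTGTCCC
Col6a2-202: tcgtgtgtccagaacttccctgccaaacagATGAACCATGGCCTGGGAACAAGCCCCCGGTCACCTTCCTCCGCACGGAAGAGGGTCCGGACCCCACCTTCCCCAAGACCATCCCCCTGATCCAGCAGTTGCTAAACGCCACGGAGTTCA

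With PDGF the fall of Col6a2 passed the test at the end used by Col6a2-202 and on the retained intron. Col6a2-202 had 84.7 ± 5.83 CPM with PDGF and 120.5 ± 4.50 CPM without, and fell by 0.51 on the log2 scale (SE 0.10, adjusted p = 1.74e-05). Col6a2-203 fell by 1.03 (SE 0.19, adjusted p = 5.01e-06), whereas Col6a2-201 was not called (log2 change -0.17 ± 0.07 SE, adjusted p = 0.0602). Reads on Col6a2-202 for each read on Col6a2-201 were 0.362, 0.304 and 0.324 with PDGF, against 0.400, 0.408 and 0.439 without. They were 0.225, 0.207 and 0.191 in H2A-TerminaTOR cells, against 0.254, 0.266 and 0.317 in H2A-mCherry cells, both with cycloheximide and PDGF. In both comparisons the groups did not overlap, with the smallest exact permutation p that the design allows (p = 0.1, and 0.144 after Benjamini-Hochberg adjustment over the 36 ratio tests made).

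Rapamycin with PDGF against PDGF alone asked how the RNA changes when mTORC1 is inhibited throughout the cell. In it 8 collagen genes rose and 6 fell. The collagen I chains, Col5a1, Col5a2 and Col4a2 fell, and the 3 tested collagen VI chains, Col5a3 and Col8a1 rose. The 14 called genes of 21 stand beside 32.3% of all genes called, 16.3% higher and 16.1% lower. The groups did not overlap for 14 of the 21, beside 40.9% of all genes. The median log2 change was 0.03 over the collagen genes and 0.02 over all genes. Among the 8 fibrillar genes 3 rose and 4 fell, and Col3a1 was not called, at 627, 685 and 617 CPM with rapamycin against 583, 552 and 674 CPM with PDGF alone (log2 change 0.09 ± 0.06 SE, adjusted p = 0.283).

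Col1a1 had 2076, 2179 and 2253 CPM with rapamycin and PDGF against 3546, 3728 and 3776 CPM with PDGF alone, and fell by 0.76 on the log2 scale (SE 0.05, adjusted p = 8.85e-21). Col1a2 had 1424, 1732 and 1555 CPM with rapamycin, against 2437, 2466 and 2496 CPM with PDGF alone, and fell by 0.65 (SE 0.05, adjusted p = 9.15e-17). These were the 2 highest collagen genes per kilobase of transcript-specific sequence in the PDGF-free cells, if reads on shared bases were not counted. The rapamycin libraries of both genes lay below every other library of the study. Col4a2 had 555, 529 and 572 CPM with rapamycin and 752, 771 and 811 CPM with PDGF alone, a fall of 0.50 (SE 0.06, adjusted p = 1.72e-11). Col5a2 fell by 0.34 (SE 0.06, adjusted p = 1.7e-06) and Col5a1 by 0.17 (SE 0.05, adjusted p = 0.0133). The Col5a1 call was lost without PDGF replicate 3 (adjusted p = 0.0659) or rapamycin replicate 2 (adjusted p = 0.168).

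Col5a3 moved opposite to the other chains of its own collagen type. It had 474, 453 and 491 CPM with rapamycin and PDGF, against 202, 205 and 231 CPM with PDGF alone, and rose by 1.15 on the log2 scale (SE 0.07, adjusted p = 2.32e-23). Within each library, reads on Col5a3 for each read on Col5a1 were 0.336, 0.375 and 0.357 with rapamycin and 0.140, 0.136 and 0.150 with PDGF alone. The ratio does not depend on how libraries are scaled, and its groups did not overlap (exact permutation p = 0.1, the smallest possible). Because Col5a3 and Col5a1 parted, the 150 bases before their start sites are shown from the RefSeq promoter table of GRCm38.p6. The window of Col3a1, which fell with PDGF and was not called with rapamycin, is added for contrast. That of Col5a2 is not shown. Capitals mark matches on either strand to 3 motifs, the CCAAT box (CCAAT), the GC box (GGGCGG) and the TATA box (TATAAA), which do not overlap each other here. The windows are chr9:20815068-20815217 on the minus strand for Col5a3, chr2:27886275-27886424 on the plus strand for Col5a1 and chr1:45311388-45311537 on the plus strand for Col3a1.
Col5a3: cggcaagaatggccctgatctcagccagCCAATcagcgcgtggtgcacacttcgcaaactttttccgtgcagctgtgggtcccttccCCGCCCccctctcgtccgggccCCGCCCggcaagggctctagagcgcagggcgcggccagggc
Col5a1: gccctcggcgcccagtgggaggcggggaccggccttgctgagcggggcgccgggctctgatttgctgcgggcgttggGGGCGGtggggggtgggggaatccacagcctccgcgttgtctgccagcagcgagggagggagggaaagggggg
Col3a1: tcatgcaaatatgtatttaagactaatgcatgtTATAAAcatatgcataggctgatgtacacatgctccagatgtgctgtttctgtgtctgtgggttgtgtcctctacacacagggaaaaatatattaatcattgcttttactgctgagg

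In the Col5a3 window the CCAAT box letters stood 122 to 118 bases before the start and those of the GC box, on the opposite strand, at 63 to 58 and 41 to 36 bases. The Col5a1 window held the GC box letters alone, at 73 to 68 bases, and the Col3a1 window the TATA box letters alone, at 117 to 112 bases. Among all 32851 promoter windows of this length, 24.5% held the first of these motifs, 28.6% the second and 7.57% the third. The table matched 35 of the 44 collagen genes with 38 windows, of which 8, 19 and 4 held these motifs. These matches describe letters in the windows and no binding was measured.

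The collagen VI chains rose with rapamycin. Col6a1 had 3137, 3662 and 3702 CPM with rapamycin and PDGF, against 2214, 2309 and 2483 CPM with PDGF alone, and rose by 0.58 on the log2 scale (SE 0.05, adjusted p = 1.43e-14). Col6a2 had 445, 484 and 521 CPM with rapamycin, against 330.5, 364 and 391 CPM with PDGF alone, and rose by 0.42 (SE 0.06, adjusted p = 2e-07). The libraries of these genes are printed although their changes rank below the 8 largest, a choice made after their values were seen. Col6a3 rose by 0.33 (SE 0.12, adjusted p = 0.0287), and its call was lost without rapamycin replicate 1 or 2, without PDGF replicate 1 or 2, under scaling by library size (0.21, adjusted p = 0.206) and without a filter on low counts (0.28, adjusted p = 0.173). Reads on Col6a1 for each read on Col1a1 were 1.51, 1.68 and 1.64 with rapamycin and 0.624, 0.619 and 0.658 with PDGF alone. The rapamycin ratios were the highest of all 15 libraries, but such ratios are not scaled to length. Per kilobase of transcript-specific sequence, Col6a1 and Col1a1 were close with PDGF alone, at 676 ± 39.5 and 686 ± 22.6 CPM (SD, n = 3). With rapamycin they were at 1013 ± 91.3 and 404 ± 16.5 CPM per kilobase. This scale takes reads on shared bases as not counted.

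Col8a1 had 346, 363 and 383 CPM with rapamycin and 250.1, 222 and 256 CPM with PDGF alone, and rose by 0.59 on the log2 scale (SE 0.07, adjusted p = 8.73e-11). Col27a1, a fibrillar gene of low level, had 22.6, 27.7 and 29.7 CPM with rapamycin and 17.9, 15.5 and 14.5 CPM with PDGF alone, and rose by 0.75 (SE 0.20, adjusted p = 0.00199). Col11a2 had 18.7, 16.0 and 15.2 CPM with rapamycin and 10.2, 10.1 and 7.46 CPM with PDGF alone, and rose by 0.85 (SE 0.27, adjusted p = 0.0102). All 3 genes had rapamycin libraries above every PDGF library, although the Col11a2 call was lost without rapamycin replicate 1 (adjusted p = 0.0510) or PDGF replicate 3 (adjusted p = 0.0852).

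Col9a3, a chain of a cartilage collagen, had 7.52, 1.85 and 6.65 CPM with rapamycin and 1.93, 1.55 and 1.04 CPM with PDGF alone. It rose by 1.85 on the log2 scale (SE 0.56, adjusted p = 0.00644), but the groups overlapped and the call was lost without rapamycin replicate 1 (adjusted p = 0.0558). Col9a3 also shares exon bases with the neighbouring gene Tcfl5. Of the 4 chondrocyte markers listed, 1 had enough reads to be tested, Sox9, with 42241 reads over all libraries, while Acan had 14, Matn3 had 10 and Matn1 had 4. Their summed level was 295 to 340 CPM in H2A-TerminaTOR cells and 424 to 485 CPM in H2A-mCherry cells with cycloheximide, 1670 to 1916 CPM with rapamycin, 563 to 640 CPM with PDGF alone and 259 to 276 CPM without PDGF. Col2a1, the main fibrillar collagen of cartilage, had 1 read in the whole study.

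Col16a1, a fibril-associated gene, had 3.90, 6.77 and 4.99 CPM with rapamycin and 16.0, 8.79 and 14.7 CPM with PDGF alone, and fell by 1.34 on the log2 scale (SE 0.30, adjusted p = 0.000231). About as many of its reads lay on the noncoding transcript Col16a1-205 (51.7%) as on all others together. Col16a1-205 fell by 1.93 (SE 0.43, adjusted p = 0.000168), and no coding transcript of the gene was tested. Among all transcripts 27.2% were called with rapamycin. The retained-intron transcripts of Col1a2 fell further than its main transcript here too, Col1a2-206 by 2.36 (SE 0.32, adjusted p = 2.5e-09) and Col1a2-207 by 1.93 (SE 0.27, adjusted p = 4.18e-09), against 0.67 (SE 0.06) for Col1a2-201. Their reads for each read on Col1a2-201 were 0.00334, 0.00482 and 0.00507 with rapamycin, the lowest of all 15 libraries, against 0.0147, 0.0127 and 0.00982 with PDGF alone. With rapamycin 3 of the 8 retained-intron transcripts fell, all from Col1a2, beside 3.19% of all such transcripts.

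Cycloheximide with PDGF against PDGF alone tested how the RNA changed under a block of protein synthesis, and 7 collagen genes fell and 1 rose. The 8 called genes of 21 stand beside 40.6% of all genes called, 21% higher and 19.6% lower. The groups did not overlap for 13 of the 21, beside 50.6% of all genes. Col1a1 rose slightly, Col6a3, Col8a1 and Col5a3 fell, and Col1a2 and Col3a1 were not called (log2 changes -0.03 ± 0.05 and 0.04 ± 0.06 SE). The median log2 change was -0.07 over the collagen genes and 0.01 over all genes.

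Col6a3 had 31.4, 41.1 and 36.1 CPM with cycloheximide and PDGF, against 56.5, 61.5 and 64.8 CPM with PDGF alone, and fell by 0.76 on the log2 scale (SE 0.13, adjusted p = 9.95e-07). Col8a1 had 191, 182 and 191 CPM with cycloheximide against 250.1, 222 and 256 CPM with PDGF alone, and fell by 0.37 (SE 0.07, adjusted p = 1.38e-05). Col5a3 had 177, 169 and 164 CPM with cycloheximide against 202, 205 and 231 CPM with PDGF alone, and fell by 0.32 (SE 0.07, adjusted p = 0.000137). These 3 genes rose with PDGF and with rapamycin, in comparisons that share the PDGF libraries with this one, but not under every setting. Under scaling by library size the PDGF change of Col8a1 was -0.01 and that of Col5a3 was 0.16 with no call, and the rapamycin call of Col6a3 was lost under 6 of 15 alternatives.

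Col16a1 had 7.24, 4.03 and 5.38 CPM with cycloheximide and 16.0, 8.79 and 14.7 CPM with PDGF alone, and fell by 1.23 on the log2 scale (SE 0.29, adjusted p = 0.000315). Col4a2 had 652, 663 and 666 CPM with cycloheximide and 752, 771 and 811 CPM with PDGF alone, a fall of 0.24 (SE 0.05, adjusted p = 0.000306). Col1a1 had 4046, 4444 and 4241 CPM with cycloheximide against 3546, 3728 and 3776 CPM with PDGF alone, and rose by 0.20 (SE 0.05, adjusted p = 0.000809). Under scaling by library size, which set the median of all genes at -0.13, the rise of Col1a1 was 0.07 and was not called. Col1a2 (-0.17), Col5a1 (-0.21) and Col6a1 (-0.24) were then called lower, with adjusted p up to 0.00495, and Col6a1 was called lower under 5 of the 15 alternatives in all. The remaining calls were weak: Col4a4 had 5.58, 3.78 and 7.11 CPM with cycloheximide and 10.5, 11.1 and 7.66 CPM with PDGF alone (log2 change -0.79 ± 0.30 SE, adjusted p = 0.0278), and Col6a2 had 321, 318 and 327 CPM with cycloheximide and 330.5, 364 and 391 CPM with PDGF alone (-0.17 ± 0.06 SE, adjusted p = 0.0312). Leaving out single libraries ended both calls, as did testing without a filter on low counts. The call was lost for Col4a4 without cycloheximide replicate 1 or 2 or PDGF replicate 1 or 2, and for Col6a2 without cycloheximide replicate 2 or 3 or PDGF replicate 3. The Col6a2 call was also lost when only the transcript of each gene with the most reads was counted (-0.09, adjusted p = 0.324).

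With cycloheximide the retained-intron transcripts called lower came from Col6a2, Col5a3 and Col3a1. Col6a2-203 had 5.79 ± 1.10 CPM with cycloheximide and 18.8 ± 1.94 CPM with PDGF alone, and fell by 1.68 on the log2 scale (SE 0.23, adjusted p = 3.49e-09). Col5a3-202 fell by 1.79 (SE 0.55, adjusted p = 0.00622). Col3a1-203, also called lower (adjusted p = 0.0137), was close to 0 reads with cycloheximide, at 0.0860 ± 0.149 CPM against 1.04 ± 0.240 CPM with PDGF alone. The Col1a2-206 and Col1a2-207 values were -0.13 ± 0.24 and -0.11 ± 0.21 SE and were not called. The 3 of 8 that fell stand beside 26.1% of all retained-intron transcripts called lower with cycloheximide, where 37.1% of all transcripts were called.

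TerminaTOR against mCherry, both with cycloheximide and PDGF, addressed inhibition of mTORC1 in the nucleus. Here 5 collagen genes rose and 0 fell by edgeR's test, and the genes that rose were both chains of collagen I, Col5a1 and Col5a2 of collagen V, and Col4a2. The 5 called genes of 21 stand beside 4.92% of all genes called, 2.35% higher and 2.57% lower. These shares are 249 and 273 genes, and leaving out 1 library lowered them to between 141 and 172 higher and between 154 and 195 lower. They fell by more than 1.5 times in at least 1 direction without TerminaTOR replicate 1 (141 higher, 167 lower), 2 (171 and 180) or 3 (165 and 154) and without mCherry cycloheximide replicate 1 (157 and 183) or 3 (155 and 165). The groups did not overlap for 7 of the 21, beside 23.7% of all genes. The changes were small, between 0.19 and 0.47 on the log2 scale. The collagen VI chains, Col3a1, Col5a3 and Col8a1 were not called, with log2 changes between -0.09 and 0.19. The median log2 change was 0.04 over the collagen genes and 0.00 over all genes.

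Col5a2 had 1117, 1132 and 1111 CPM in H2A-TerminaTOR cells, against 804, 812 and 801 CPM in H2A-mCherry cells. It rose by 0.47 on the log2 scale (SE 0.06, adjusted p = 3.33e-09), and its H2A-TerminaTOR libraries were above all 12 others. Col1a1 had 4849, 5323 and 5286 CPM in H2A-TerminaTOR cells and 4046, 4444 and 4241 CPM in H2A-mCherry cells, and rose by 0.28 (SE 0.05, adjusted p = 9.47e-05). Both calls held under all 15 alternatives run for this comparison.

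Col4a2 had 768, 764 and 804 CPM in H2A-TerminaTOR cells and 652, 663 and 666 CPM in H2A-mCherry cells, and rose by 0.24 on the log2 scale (SE 0.05, adjusted p = 0.00309). Col5a1 had 1626, 1713 and 1670.4 CPM in H2A-TerminaTOR cells and 1442, 1445 and 1387 CPM in H2A-mCherry cells, and rose by 0.23 (SE 0.05, adjusted p = 0.00403). Col1a2 had 2731, 2782 and 2784 CPM in H2A-TerminaTOR cells and 2450.3, 2452 and 2346 CPM in H2A-mCherry cells, and rose by 0.19 (SE 0.05, adjusted p = 0.0167). In all 3 genes the groups did not overlap. The Col1a2 call was lost whichever of the 6 libraries was left out (adjusted p up to 0.148) and without a filter on low counts (0.0522), that of Col5a1 without TerminaTOR replicate 2 (0.0530) or mCherry cycloheximide replicate 3 (0.0591), and that of Col4a2 without TerminaTOR replicate 3 (0.0518).

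Col4a6, which lies head to head with Col4a5 on the X chromosome, had 132, 138 and 129 CPM in H2A-TerminaTOR cells and 168, 152 and 151 CPM in H2A-mCherry cells. The groups did not overlap, but edgeR did not call it (log2 change -0.24 ± 0.08 SE, adjusted p = 0.0584), while DESeq2 did (adjusted p = 0.0379) and limma-voom did not. It was the only collagen gene lower at an unadjusted p under 0.05. Reads on Col4a2 for each read on Col4a6 were 5.82, 5.54 and 6.23 in H2A-TerminaTOR cells and 3.88, 4.36 and 4.41 in H2A-mCherry cells. Reads on Col5a1 for each read on Col5a2 were 1.45, 1.51 and 1.50 in H2A-TerminaTOR cells and 1.79, 1.78 and 1.73 in H2A-mCherry cells. Both ratios gave the smallest exact permutation p possible (p = 0.1). None of the 8 retained-intron collagen transcripts was called by edgeR or had an unadjusted p under 0.05, beside 1.37% of such transcripts called lower and 3.61% of all transcripts called, and no other tool was run on transcripts.

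**Figure D3:**
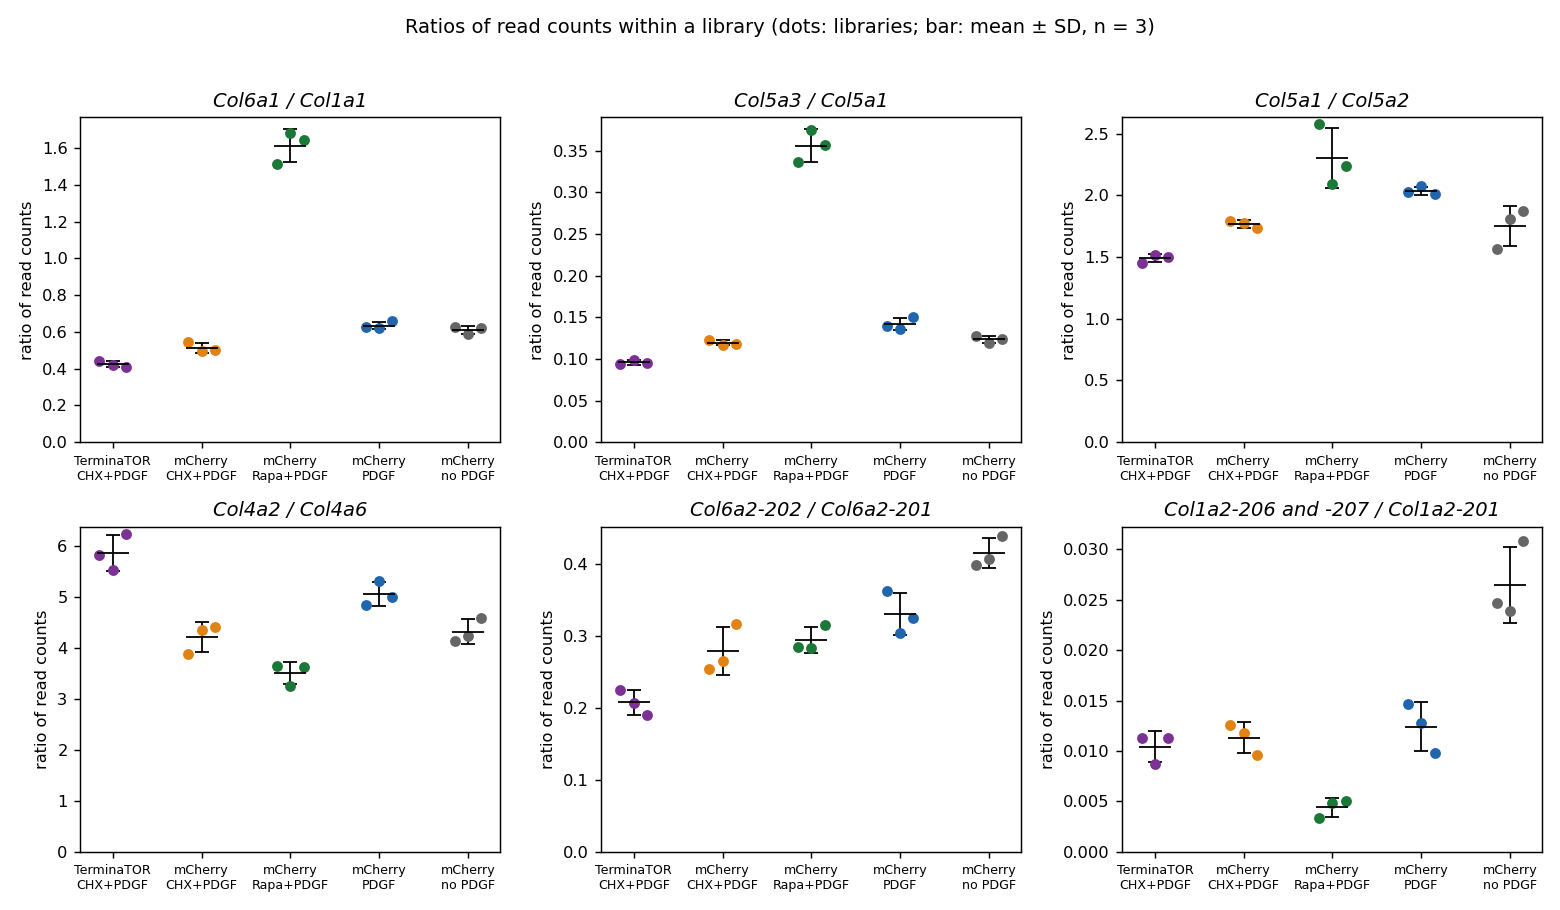
Ratios of read counts within a library (y axes, from 0) for 6 pairs of collagen genes or transcripts in the 3 libraries of each of the 5 groups (x axis), with the mean and SD. Col6a1 over Col1a1 was 1.51 to 1.68 in the rapamycin libraries and 0.411 to 0.658 in all others, and Col5a3 over Col5a1 was likewise highest with rapamycin.

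The rapamycin effect and the TerminaTOR effect were then compared with a test of their difference, (rapamycin and PDGF against PDGF) minus (TerminaTOR against mCherry, both with cycloheximide and PDGF). The effects share no library, but 1 was measured without and the other with cycloheximide, so the kind of mTORC1 inhibition and the presence of cycloheximide cannot be told apart. The changes differed for 10 of the 21 collagen genes, beside 24.0% of all genes called, 11.6% higher and 12.4% lower. Col1a1, Col1a2, Col4a2, Col5a1 and Col5a2 all fell with rapamycin and rose with TerminaTOR, a pattern called for 95 of 10603 genes (0.896%). No collagen gene was called in the other 3 combinations of direction, which held 84 genes higher with rapamycin and lower with TerminaTOR (0.792%), 88 lower in both (0.830%) and 60 higher in both (0.566%). The differences of these 5 genes ran from -1.04 ± 0.07 SE for Col1a1 to -0.40 ± 0.08 SE for Col5a1, with adjusted p up to 3.76e-05. The TerminaTOR calls of Col1a2, Col4a2 and Col5a1 and the rapamycin call of Col5a1 were lost when certain single libraries were left out. Only Col1a1 and Col5a2 kept both calls under every alternative.

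The other 5 differences were positive and arose from genes that rose with rapamycin and were not called with TerminaTOR. They were 2.68 ± 0.77 SE for Col9a3, 1.24 ± 0.10 for Col5a3, 0.62 ± 0.10 for Col8a1, 0.58 ± 0.08 for Col6a1 and 0.34 ± 0.09 for Col6a2. The Col9a3 difference rests on 61 reads with rapamycin, 18 with PDGF alone, 28 in H2A-TerminaTOR cells and 48 in H2A-mCherry cells with cycloheximide. Its rapamycin and PDGF libraries overlapped. The Col6a2 difference was not called under scaling by library size (0.18, adjusted p = 0.133) or without a filter on low counts (0.28, adjusted p = 0.0872). For Col6a3 the difference was 0.14 (95% interval -0.21 to 0.49), and for Col3a1 it was 0.07 (95% interval -0.10 to 0.24). Neither was called.

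**Figure D4:**
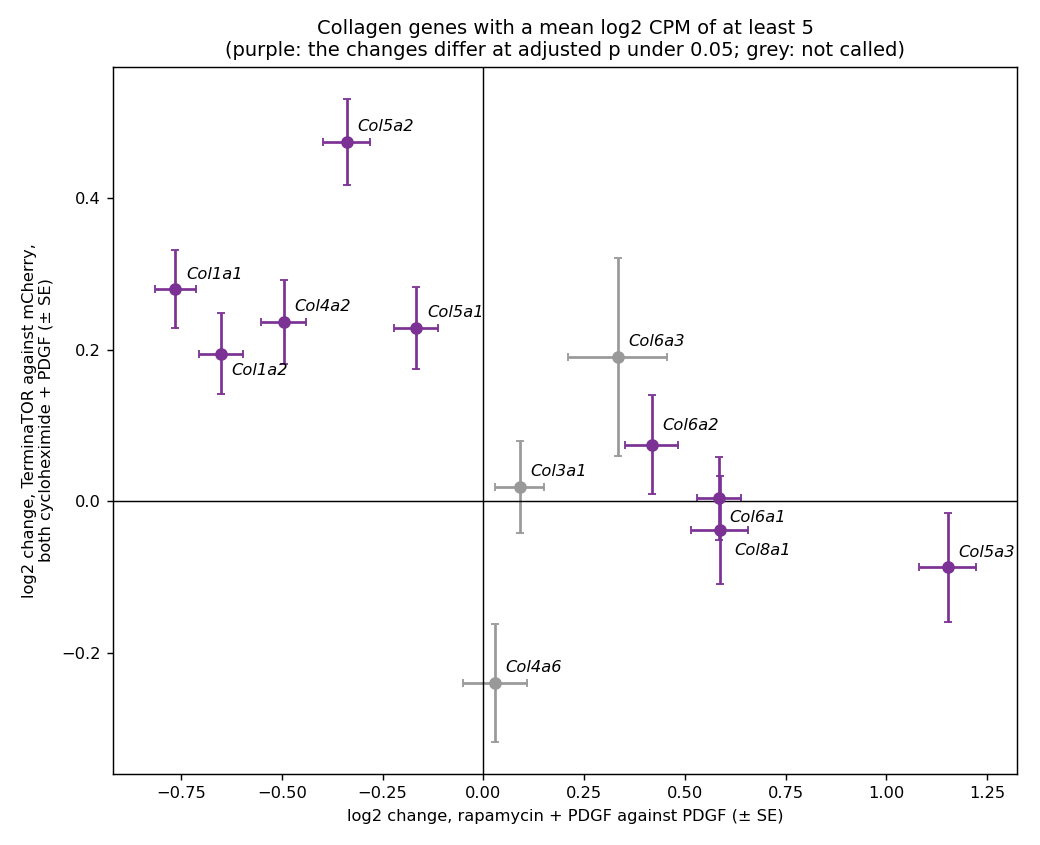
Log2 change with rapamycin (x axis) against log2 change with TerminaTOR (y axis), each with SE, for the 12 collagen genes whose mean log2 CPM was 5 or more. Col1a1, Col1a2, Col4a2, Col5a1 and Col5a2 lie at the upper left, lower with rapamycin and higher with TerminaTOR, and Col5a3, Col6a1, Col6a2 and Col8a1 lie at the right near 0 on the TerminaTOR axis.

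Summed over their chains, the fibrillar genes had 11120, 11773 and 11674 CPM in H2A-TerminaTOR cells against 9540, 9976 and 9604 CPM in H2A-mCherry cells, both with cycloheximide and PDGF. With rapamycin they had 6602, 6877 and 6950 CPM, against 8957, 9203 and 9499 CPM with PDGF alone. The collagen VI genes had 3662, 4230 and 4293 CPM with rapamycin, against 2601, 2734 and 2939 CPM with PDGF alone. The fibrillar sum was thus lowest and the collagen VI sum highest in the rapamycin libraries, and neither overlapped with the PDGF libraries. These sums are mostly Col1a1 and Col1a2 for the fibrillar genes and Col6a1 for collagen VI, and are not scaled to the length of each gene.

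Genes whose products act on collagen chains in the secretory pathway were described from a list of 26, of which 15 were tested. With rapamycin 7 fell and 1 rose, with a median log2 change of -0.32, beside 16.1% lower, 16.3% higher and a median of 0.02 over all genes tested. P3h4, which takes part in lysine hydroxylation of collagen, fell by 0.50 on the log2 scale (SE 0.09, adjusted p = 3.35e-06), at 96.2 ± 4.55 CPM with rapamycin against 136 ± 1.57 CPM with PDGF alone. Mia3, the receptor that loads procollagen into transport carriers, fell by 0.48 (SE 0.08, adjusted p = 6.37e-07), and the chaperone gene Fkbp10 fell by 0.45 (SE 0.13, adjusted p = 0.00439). Plod3, a lysyl hydroxylase, rose by 0.46 (SE 0.12, adjusted p = 0.00115). With TerminaTOR 2 of the 15 rose and 0 fell by edgeR's test, beside 4.92% of all genes called, and 4 had an unadjusted p under 0.05. The called genes were Sec23a, a subunit of the COPII export coat, at 0.35 ± 0.09 SE (adjusted p = 0.0112) and P4hb, a subunit of prolyl 4-hydroxylase, at 0.22 ± 0.06 SE (adjusted p = 0.00923). Both had fallen with rapamycin, Sec23a by 0.45 (SE 0.10) and P4hb by 0.38 (SE 0.06), and their changes differed between the comparisons (adjusted p = 1.89e-06 for Sec23a and 5.86e-09 for P4hb).

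With PDGF against no PDGF 2 of the 15 rose and 4 fell, a share close to the 37.0% of all genes called. Colgalt1, which adds galactose to hydroxylysine of collagen, fell by 1.52 (SE 0.50, adjusted p = 0.0128), P3h4 fell by 0.51 (SE 0.08), Creb3l1, a transcription factor of the secretory pathway, fell by 0.48 (SE 0.09, adjusted p = 3.55e-06), and Plod3 rose by 0.46 (SE 0.12). With cycloheximide 1 rose and 2 fell, beside 40.6% of all genes called. These were Klhl12, at 1.01 ± 0.40 SE, and Plod2 and P4ha2, which fell by 2.16 (SE 0.64) and 1.35 (SE 0.45). Of 13 genes for propeptide processing and cross-linking, 8 were tested. With PDGF 4 of these fell, beside 16.9% of all genes called lower: Bmp1 and Pcolce, a procollagen proteinase and its enhancer, and the cross-linking enzymes Lox and Loxl1. Pcolce had 7.45 ± 1.44 CPM with PDGF and 23.2 ± 2.11 CPM without, and fell by 1.62 on the log2 scale (SE 0.26, adjusted p = 3.02e-07). It fell further with rapamycin, by 3.01 (SE 0.43, adjusted p = 2.26e-08), to 0.950 ± 0.541 CPM against 7.45 ± 1.44 CPM with PDGF alone. Also with rapamycin, Adamts2, the proteinase that trims the amino ends of fibrillar procollagens, fell by 0.46 (SE 0.13, adjusted p = 0.00455), and Loxl4 rose by 1.12 (SE 0.14, adjusted p = 5.14e-10). With cycloheximide 0 rose and 2 fell, beside 40.6% of all genes called, Pcolce by 1.94 (SE 0.35) and Loxl1 by 0.19 (SE 0.06). With TerminaTOR none of the 8 was called by edgeR, with 2 at an unadjusted p under 0.05.

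Of 16 genes for proteins that bind collagen in the matrix, 9 were tested. With rapamycin 5 rose and 1 fell, beside 16.3% of all genes called higher and 16.1% lower. Decorin (Dcn) had 71.8 ± 4.57 CPM with rapamycin and 11.6 ± 3.75 CPM with PDGF alone, and rose by 2.66 on the log2 scale (SE 0.20, adjusted p = 1.52e-18). Lumican (Lum) rose by 1.34 (SE 0.20, adjusted p = 4.15e-08) and Ogn by 0.95 (SE 0.11, adjusted p = 2.57e-08), both small proteoglycans, and Sparc fell by 1.42 (SE 0.43, adjusted p = 0.00723). With TerminaTOR Lum fell by 1.10 (SE 0.22, adjusted p = 0.00037), at 7.50 ± 0.432 CPM against 16.1 ± 1.89 CPM in H2A-mCherry cells, and Thbs2 rose by 0.17 (SE 0.05, adjusted p = 0.0430). With PDGF Dcn rose by 0.70 (SE 0.24), Nid1, a basement membrane linker, rose by 0.30 (SE 0.06) and Ogn fell by 0.83 (SE 0.11). With cycloheximide 2 rose and 5 fell, beside 21% of all genes called higher and 19.6% lower. Dcn fell by 1.82 (SE 0.28, adjusted p = 1.03e-07).

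Of 10 genes for collagen receptors and uptake, 7 were tested. With rapamycin 3 rose and 0 fell by edgeR's test, all of them integrin subunits, beside 32.3% of all genes called. An unadjusted p under 0.05 was found for 5 of the 7, and for 4278 of all 10603 genes. Itga2, whose product pairs with that of Itgb1 to bind fibrillar collagen, had 23.6 ± 7.03 CPM with rapamycin and 1.23 ± 0.280 CPM with PDGF alone, a rise of 4.24 on the log2 scale (SE 0.42, adjusted p = 1.42e-13). Itga1 rose by 1.38 (SE 0.52, adjusted p = 0.0354) and Itgb1 by 0.48 (SE 0.08, adjusted p = 2.04e-06). With PDGF Itgb1 had risen by 0.73 (SE 0.09, adjusted p = 3.2e-11). Mrc2, an endocytic receptor for collagen, fell by 0.70 with PDGF (SE 0.06, adjusted p = 4.01e-16) and rose by 0.53 with cycloheximide (SE 0.06, adjusted p = 2.26e-11). With TerminaTOR Itga1 was the 1 gene of the 7 that was called (log2 change -1.87 ± 0.59 SE, adjusted p = 0.0459), at 0.776 ± 0.871 CPM against 3.22 ± 0.948 CPM in H2A-mCherry cells.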

How the data were processed

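RNA was sequenced in 15 libraries of NIH3T3 cells, grouped by construct and treatment as the labels give them. The deposited files hold raw read counts per transcript, not normalized. They were made with HISAT2 2.2.1, HTSeq 0.9.1 and R 4.1.0, per the submitters' processing notes, which also name the human build hg38, although the identifiers are those of mouse transcripts. No source used here states the strand setting, so antisense partners cannot be told apart from the genes they overlap.

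Of 142446 identifiers 141536 matched GENCODE M21 (GRCm38), and the others, with 0.0309% of counts, were not used. Gene counts, each the sum over its transcripts, were tested in R 4.3.3 with edgeR 4.0.16: TMM scaling, filterByExpr, a robust quasi-likelihood fit of all 15 libraries with a mean per group, and Benjamini-Hochberg adjustment over 10603 genes, with calls at an adjusted p under 0.05. Transcripts were also fitted on their own. SE is the absolute log2 change over the square root of F. Alternatives used DESeq2 1.42.0 and limma 3.58.1. The procedure was tested on simulated data, with changes larger than those of the collagen genes called with TerminaTOR. It was not tested on changes that small. The labels do not say that libraries came from separate cultures, so the p-values measure only how these samples spread, which may be technical.

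Values in every library are given for up to 8 called members per comparison, largest change first, and up to 4 called genes per comparison with a mean log2 CPM of 1 or more are named in each other list. Further members shown per library, the transcripts and the ratios were picked after their values were seen. The members and lists were chosen with earlier results of these data known.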

Additional observations from a re-analysis of the deposited data

Results flagged for a closer look

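For 10 collagen genes the change with rapamycin differed from the change with TerminaTOR in the test of the difference itself (edgeR, Benjamini-Hochberg adjustment over all genes tested), beside 24.0% of all genes. The log2 differences below are the rapamycin effect minus the TerminaTOR effect, with the rapamycin change and then the TerminaTOR change in parentheses. Col1a1 differed by -1.04 (-0.76 and 0.28), Col1a2 by -0.85 (-0.65 and 0.19), Col5a2 by -0.81 (-0.34 and 0.47), Col4a2 by -0.73 (-0.50 and 0.24) and Col5a1 by -0.40 (-0.17 and 0.23). In these 5 genes the signs were opposite. Col5a3 differed by 1.24 (1.15 and -0.09), Col8a1 by 0.62 (0.59 and -0.04), Col6a1 by 0.58 (0.58 and 0.00) and Col6a2 by 0.34 (0.42 and 0.07). Col9a3 differed by 2.68 (1.85 and -0.83), at 1.04 to 7.52 CPM in the libraries concerned. The presence of cycloheximide and the derivation of the lines cannot be told apart from the kind of inhibition.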

How the results depend on the processing

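The alternatives changed the scaling, the low-count filter, the test, the libraries in the fit or the counting unit, or left out 1 library. Apart from leaving out libraries, 80 of 90 counts of called collagen genes stayed within 1.5 times the reported count. Scaling by library size changed the PDGF counts to 2 higher and 8 lower, as the median of all genes moved to -0.26, and the log2 changes of Col4a2, Col5a1 and Col8a1 with PDGF reversed to -0.18, -0.047 and -0.0085. The same scaling left 0 genes higher with cycloheximide, and limma-voom gave 2, the added gene being Col5a2. With TerminaTOR 1 gene, Col4a6, was called lower under a filter on the mean count, DESeq2's Wald test, the leading transcript alone and the compared groups alone. The cause of these shifts, other than the scaling itself, was not tested.

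Leaving out each library in turn gave 5 to 6 higher and 4 to 5 lower with PDGF, 5 to 8 higher and 5 to 7 lower with rapamycin, 1 to 2 higher and 5 to 7 lower with cycloheximide, 3 to 4 higher and 0 lower with TerminaTOR, and 5 to 6 higher and 5 lower for the difference of effects. The lowest rapamycin count was without rapamycin replicate 1, where Col6a3, Col9a3 and Col11a2 lost their calls. With cycloheximide 2 genes were higher without PDGF replicate 3 (Col5a2 added). With TerminaTOR 3 genes were higher without TerminaTOR replicate 2 or 3 or mCherry cycloheximide replicate 3.

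Same-numbered libraries correlated between -0.00149 and 0.0760 in their deviations from the group means, over all genes tested. Differently numbered libraries were not compared, so these values cannot show whether the replicate numbers pair the samples. A replicate block gave 2 genes higher with cycloheximide (Col5a2 added) and 1 lower with TerminaTOR (Col4a6). Over all genes tested, the TerminaTOR counts moved to 169 lower without a filter and to 397 higher with the compared groups alone, against 273 lower and 249 higher as reported. With PDGF, scaling by library size gave 1379 higher and 3111 lower, against 2128 and 1794. Among single collagen genes the alternatives ended 39 calls and added 28, and 3 changes reversed in sign. At the depth of these libraries, genes under about 10 CPM rest on few reads.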
